A study of Mus musculus with 24 samples.

Results

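The 7 genes described here encode RNA-binding proteins that set how long cytokine mRNAs last: Zfp36, Zfp36l1, Zfp36l2, Zc3h12a, Zc3h12c, Rc3h1 and Elavl1. They were taken by name from the gene name column of the scanner files, which holds 27827 names, and are measured by 12 of the 41174 probes on the array. All 12 were among the 21960 probes fitted, which cleared the background in every replicate of at least 1 group. Zfp36, Zfp36l1 and Rc3h1 have 2 probes each, Elavl1 has 3, and the other members have 1. Each gene is described by its brightest probe, and the dimmer probes are given beside it. No level of a gene is set against that of another gene, since probes differ in brightness.

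The study used RAW264.7 cells, a mouse macrophage-like line. By the sample titles, cells with the Tbc1d23 construct overexpress that gene, a member of the TBC family of Rab regulators. The control cells instead carry a construct to overexpress CAT (chloramphenicol acetyltransferase). Both lines grew in 400 µg/ml G418, an antibiotic used to select for constructs. Cells of each line were left without lipopolysaccharide (LPS, a bacterial ligand of TLR4) at 0 h or received 20 ng/ml LPS for 1, 3 or 5 h. Cy3-labelled RNA was hybridised to 24 one-colour arrays, which form 8 groups of 3 replicates. There was 1 line per construct, so an effect of Tbc1d23 cannot be told apart from a difference between these lines. The design text calls the replicates biological, but no source used here says that they came from separate cultures, and p-values therefore measure the spread between these samples. In bulk RNA, fewer cells that express a gene and less RNA per cell cannot be told apart.

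AU-rich elements are short sequences in the untranslated end of many cytokine mRNAs. Proteins of the ZFP36 family bind them and recruit the deadenylase complex, whereas the Zc3h12 proteins, the regnases, cut stem-loops of target mRNAs, and the roquin protein of Rc3h1 binds similar stem-loops. Elavl1 (HuR) binds AU- and U-rich elements and is known mainly for protecting its targets from decay. In macrophages, several of these regulators are themselves induced by LPS and limit the transcripts made in the same response.

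Zfp36 (tristetraprolin) is known to bind AU-rich elements in its own mRNA, and the dimmer of its 2 probes covers such an element. The 30 bases below come from that probe, at chr7:29161969-29161998 of mm9 on the minus strand, position 1569 of the transcript per the file headers. Capitals mark the nonamer TTATTTATT, the preferred sequence of the ZFP36 family written as DNA.
Zfp36 element: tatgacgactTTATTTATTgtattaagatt
The nonamer was found in 90 of the 41174 probes (0.219%), read on the probe strand, and in 1 of the 12 probes of the 7 genes. Its pentamer core ATTTA, which lies within the nonamer, was found in 9.16% of probes and in 2 of the 12, those of Zfp36 and Zc3h12a.

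The stretches upstream of Zfp36 and Zc3h12a are shown because these genes had the highest folds at 1 h among the 7 in the scaling used here. With a normexp background correction Zc3h12c (2.43 on the log2 scale) was above Zc3h12a (2.22) in the CAT line at that time. Each is the 250 bases before the annotated start in RefSeq (GRCm38.p6), on the minus strand, at chr7:28379229-28379478 for Zfp36 and chr4:125127882-125128131 for Zc3h12a. Capitals mark GC boxes (GGGCGG), the EGR site GCGNGGGCG, the TATA-like ATAAAA and the serum response element core, each searched on both strands.
Zfp36 upstream: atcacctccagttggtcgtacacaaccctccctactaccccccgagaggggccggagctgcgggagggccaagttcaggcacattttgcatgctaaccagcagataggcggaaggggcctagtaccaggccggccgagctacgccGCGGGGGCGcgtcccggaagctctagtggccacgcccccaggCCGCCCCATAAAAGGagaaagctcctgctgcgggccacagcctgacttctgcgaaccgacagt
Zc3h12a upstream: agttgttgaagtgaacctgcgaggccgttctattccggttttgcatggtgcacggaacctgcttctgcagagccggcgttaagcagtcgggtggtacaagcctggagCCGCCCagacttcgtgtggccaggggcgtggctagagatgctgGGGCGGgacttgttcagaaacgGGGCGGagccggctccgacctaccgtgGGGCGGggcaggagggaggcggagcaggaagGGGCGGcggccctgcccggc
The Zfp36 stretch (64.8% GC) held 1 match each of the EGR site, the GC box, ATAAAA and the serum response element core. The last 3 lie in 1 run, where ATAAAA is inside the serum response element core and the GC box shares its last base with that core. The Zc3h12a stretch (66.4% GC) held 5 GC boxes and none of the other 3. Of 32851 upstream stretches of this length, 32.7% held a GC box, 4.7% the EGR site, 17% ATAAAA and 1.47% the serum response element core. The letters of the NF-kB site (in 3.9% of stretches), of the AP-1 site TGANTCA (6.75%) and of TATAAA (12.4%) were in neither window. Of the 7 genes, 6 matched an entry of the upstream table. These matches are descriptions of sequence.

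Levels are on a log2 scale with the 75th percentile of each array set to 0, and are given for replicates 1, 2 and 3. Differences were called where limma, fitted over all 24 arrays, gave an adjusted p (Benjamini-Hochberg) under 0.05, and values after ± are standard errors with n = 3 arrays per group. The interaction is the LPS response of the Tbc1d23 line minus that of the CAT line. With 3 arrays a side the smallest p of an exact permutation test is 0.1, so the calls rest on limma's model.

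The transcript of Tbc1d23 itself was not called between the lines on its brighter probe (0.03, -0.16, 0.47 and -0.18 at 0, 1, 3 and 5 h). On its dimmer probe it was higher in the Tbc1d23 line at 3 h (1.00, adjusted p = 0.000113, limma) and 5 h (0.49, adjusted p = 0.0261). The arrays thus do not show a higher Tbc1d23 RNA at 0 h in the line labelled as overexpressing Tbc1d23. Whether these probes can detect the construct is not stated. Of 10 macrophage markers 10 were well above background on all 24 arrays, of 9 T and B cell markers 1 (Lck), and of 8 fibroblast and epithelial markers 0, with Col1a1 on no array. The summed macrophage marker signal, relative to the array's 75th percentile, was 1480 to 1640 in the CAT line at 0 h and 2120 to 2290 at 5 h, and 1020 to 1450 and 1130 to 1710 in the Tbc1d23 line. It moved with line and time, and its part in the results was not tested. The sum hides differences of single markers. At 0 h Adgre1 read 6.24 in the CAT line and 3.57 in the Tbc1d23 line, and Mpeg1 7.83 and 5.28. All the macrophage markers read lower in the Tbc1d23 line at 0 h except Cd14 (6.64 and 7.52) and Itgam (-0.14 and 0.62). The share of probes well above background was 42.1 to 69.5% per array.

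Zfp36 rose steeply in both lines within 1 h, stayed high in the CAT line and fell back in the Tbc1d23 line. In the CAT line it read -0.36, -0.30 and -0.21 at 0 h, 4.49, 4.71 and 4.95 at 1 h, 2.78, 2.92 and 3.02 at 3 h, and 3.74, 3.63 and 3.84 at 5 h. In the Tbc1d23 line it read -0.59, -0.37 and -0.44 at 0 h, 3.95, 4.12 and 4.30 at 1 h, 0.57, 0.65 and 0.77 at 3 h, and 0.18, 0.76 and 0.53 at 5 h. On this brighter probe every CAT array read higher than every Tbc1d23 array at each time, with the ranges touching at 0 h and far apart at 3 and 5 h. The rise at 1 h was 5.01 ± 0.14 in the CAT line (32.2-fold, adjusted p = 3.91e-15, limma) and 4.59 ± 0.14 in the Tbc1d23 line (24-fold, adjusted p = 4.93e-14). At 3 h the folds over 0 h were 9.18 and 2.19, and at 5 h 16.3 and 1.94, all called on this probe.

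The course after 1 h differed in shape as well as in size. In the CAT line the Zfp36 signal dropped to 28.5% of its 1 h value at 3 h and climbed again to 50.6% at 5 h. The difference between 5 and 3 h was 0.83 ± 0.14 (adjusted p = 0.00036, limma) and positive on all 3 slides (0.71 to 0.96). In the Tbc1d23 line it was 9.1% of the 1 h value at 3 h and 8.07% at 5 h, with no called change between these times (-0.17 ± 0.14, adjusted p = 1). The interaction was -0.42 ± 0.20 at 1 h (95% interval -0.84 to 0, adjusted p = 0.573), -2.07 ± 0.20 at 3 h (adjusted p = 4.28e-07) and -3.07 ± 0.20 at 5 h (adjusted p = 1.31e-09). The change from 1 to 5 h was lower in the Tbc1d23 line by -2.65 ± 0.20 (adjusted p = 1.26e-08). With arrays scaled to their median, the 3 h interaction was -1.49 (adjusted p = 0.0674). So scaled, the rise at 5 h in the Tbc1d23 line was 1.21 (adjusted p = 0.102) and the CAT difference between 5 and 3 h was 0.82 (adjusted p = 0.321), and none of the 3 was called. Within run 2, the slide run with arrays of both lines, the rise at 5 h in the Tbc1d23 line was 0.97 and was not called (adjusted p = 0.0549). Run 2 holds 1 Tbc1d23 array per time, so in every p-value within run 2 the spread comes from the CAT groups alone and the lone arrays are assumed to vary as those do. The loss of Zfp36 mRNA level in the Tbc1d23 line is a steady-state measurement, and neither transcription nor decay rates were measured.

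**Figure D1:**
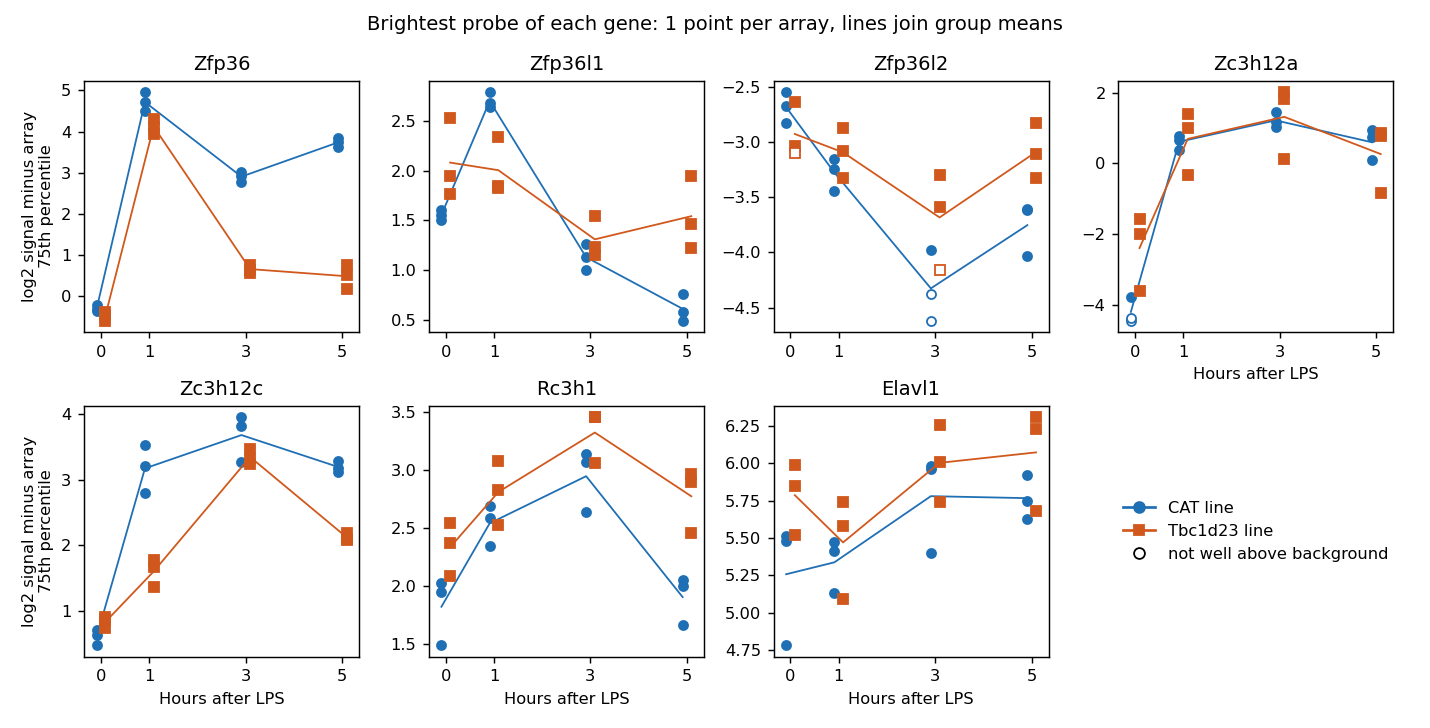
Log2 signal minus the array's 75th percentile (y axis) of the brightest probe of each of the 7 genes against hours after LPS (x axis), with 1 point per array and lines joining the group means of the CAT and Tbc1d23 lines. Zfp36 peaks at 1 h in both lines and at 5 h lies between 3.63 and 3.84 in the CAT line and between 0.18 and 0.76 in the Tbc1d23 line; each panel has its own y axis.

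Ordered by mean, the 8 groups of Zfp36 ran from CAT 1 h through Tbc1d23 1 h, CAT 5 h, CAT 3 h, Tbc1d23 3 h, Tbc1d23 5 h and CAT 0 h to Tbc1d23 0 h. Neighbours differed by called amounts except Tbc1d23 3 h and 5 h (0.17, adjusted p = 1, limma) and the 2 lines at 0 h (0.17, adjusted p = 0.339). The line difference at 1 h was -0.60 ± 0.14 (adjusted p = 0.00205). It was not called with arrays scaled to their median (-0.72, adjusted p = 0.153), within run 2 (-0.42, adjusted p = 0.0961) or on the mean of both probes (-0.18, adjusted p = 0.557). The dimmer Zfp36 probe, which covers the element above, rose by 5.24 ± 0.40 at 1 h in the CAT line and 4.75 ± 0.40 in the Tbc1d23 line. Its interactions were -2.27 ± 0.56 at 3 h (adjusted p = 0.00776) and -3.26 ± 0.56 at 5 h (adjusted p = 0.00022). By mean the dimmer probe read higher in the Tbc1d23 line at 0 h, by 0.74 (adjusted p = 0.14, limma), and at 1 h, by 0.25 ± 0.40 (adjusted p = 0.651). The brighter probe read lower there at both times. On this dimmer probe the rises in the Tbc1d23 line at 3 h (1.24, adjusted p = 0.0733) and 5 h (1.01, adjusted p = 0.189) and the CAT difference between 5 and 3 h (0.76, adjusted p = 0.268) were not called. The 2 probes had the same direction in 18 of 20 contrasts, and 17 were called on the brighter probe, of which 12 were called on both. They were called in opposite directions in 0 of 20.

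Zfp36l1, a paralog of Zfp36 that also recruits deadenylation, rose transiently in the CAT line, with no called rise in the Tbc1d23 line. The CAT line read 1.56, 1.61 and 1.5 at 0 h, 2.64, 2.68 and 2.79 at 1 h, 1.26, 1.00 and 1.13 at 3 h, and 0.76, 0.58 and 0.49 at 5 h. The Tbc1d23 line read 1.77, 1.95 and 2.53 at 0 h, 1.85, 1.83 and 2.34 at 1 h, 1.23, 1.15 and 1.55 at 3 h, and 1.46, 1.22 and 1.95 at 5 h. Replicate 3 was the highest of its group at every time in the Tbc1d23 line. The CAT arrays were all lower than the Tbc1d23 arrays at 0 and 5 h and all higher at 1 h, and the lines overlapped at 3 h.

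In the CAT line Zfp36l1 rose by 1.14 ± 0.20 at 1 h (2.21-fold, adjusted p = 0.000491, limma) and by 5 h lay below its starting level, by -0.95 ± 0.20 (1.93-fold lower, adjusted p = 0.000575). The change in the Tbc1d23 line at 1 h was -0.07 ± 0.20 (95% interval -0.48 to 0.34, adjusted p = 0.996), and at 3 h the gene was lower than at 0 h by -0.77 ± 0.20 (adjusted p = 0.0215). The interaction was -1.22 ± 0.28 at 1 h (adjusted p = 0.0198), and the change from 1 to 5 h differed by 1.63 ± 0.28 (adjusted p = 0.000234), since the gene fell further in the CAT line. At 5 h the Tbc1d23 line stood 0.93 ± 0.20 above the CAT line (adjusted p = 0.000547). The dimmer probe gave -1.27 ± 0.24 for the 1 h interaction (adjusted p = 0.0042) and had the same direction in 20 of 20 contrasts.

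Several Zfp36l1 calls sat near the threshold. The 1 h interaction was not called without 1 of 4 arrays: Tbc1d23 1 h replicate 1 (-1.14, adjusted p = 0.0662, limma), Tbc1d23 1 h replicate 2 (-1.13, 0.0614), Tbc1d23 0 h replicate 3 (-0.99, 0.0513) and CAT 1 h replicate 3 (-1.18, 0.0559). Nor was it called with arrays scaled to their median (-0.79, adjusted p = 0.726). That scaling also left the 1 to 5 h interaction at 1.5 (adjusted p = 0.0699) and the 5 h line difference at 0.68 (0.129), neither called. The 0 h line difference was 0.52 ± 0.20 (adjusted p = 0.0364). It was 0.88 with run as a block, 0.97 within run 2, -0.02 with arrays scaled to their median (adjusted p = 0.968), 0.30 without Tbc1d23 0 h replicate 3 (adjusted p = 0.215), and not called without any 1 of the 3 CAT arrays at 0 h. The fall at 3 h in the Tbc1d23 line was not called without Tbc1d23 3 h replicate 1 (-0.73, adjusted p = 0.0776), Tbc1d23 3 h replicate 2 (-0.68, 0.102) or Tbc1d23 0 h replicate 3 (-0.54, 0.121), nor with arrays scaled to their median (-0.22, 0.644).

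Zfp36l2, the remaining measured ZFP36 family member, was dim and went down after LPS. The CAT line read -2.83, -2.55 and -2.67 at 0 h, -3.44, -3.15 and -3.24 at 1 h, -4.38, -3.98 and -4.62 at 3 h, and -3.61, -3.62 and -4.03 at 5 h. The Tbc1d23 line read -3.04, -3.10 and -2.64 at 0 h, -3.08, -3.33 and -2.87 at 1 h, -3.30, -4.16 and -3.59 at 3 h, and -2.83, -3.33 and -3.11 at 5 h. The lines overlapped at 0, 1 and 3 h, and at 5 h all Tbc1d23 arrays were higher. The probe was well above background on 20 of 24 arrays, on 1 of 3 in the CAT line at 3 h and on 2 of 3 in the Tbc1d23 line at 0 and 3 h.

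The fall in the CAT line was -1.65 ± 0.21 at 3 h (3.13-fold lower, adjusted p = 4.78e-06, limma) and -1.07 ± 0.21 at 5 h (2.11-fold lower, adjusted p = 0.000415). In the Tbc1d23 line it was -0.76 ± 0.21 at 3 h (adjusted p = 0.0397) and -0.17 at 5 h (adjusted p = 0.898). The interaction was 0.89 ± 0.30 at 3 h (adjusted p = 0.0537) and 0.91 ± 0.30 at 5 h (adjusted p = 0.0372). These calls depend on how background is treated: with a normexp correction the CAT change at 3 h was -0.23 (adjusted p = 0.31) and the 5 h interaction 0.10 (adjusted p = 0.85). The 5 h interaction was not called without Tbc1d23 0 h replicate 1 or 2, Tbc1d23 5 h replicate 1 or 3, CAT 0 h replicate 2 or 3 or CAT 5 h replicate 3 (0.77 to 0.92, adjusted p up to 0.106). The same held with arrays scaled to their median (1.2, 0.058) or within run 2 (0.60, 0.329). The Tbc1d23 fall at 3 h was not called without Tbc1d23 0 h replicate 1 or 3, Tbc1d23 3 h replicate 2 or 3, CAT 0 h replicate 3 or CAT 1 h replicate 3 (adjusted p up to 0.241), nor with quantile normalization (-0.20, 0.812). The 3 h interaction was called without Tbc1d23 3 h replicate 2 (1.13), Tbc1d23 0 h replicate 3 (1.03) or CAT 3 h replicate 2 (1.06), with slide as a random block (0.89, adjusted p = 0.00362) and with quantile normalization (1.42, 0.00791).

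Zc3h12a (regnase-1), an endoribonuclease that cuts inflammatory mRNAs, was induced at 1, 3 and 5 h in both lines, by amounts that depend on how the low 0 h signal is treated. The CAT line read -4.45, -4.37 and -3.78 at 0 h, 0.38, 0.79 and 0.67 at 1 h, 1.02, 1.47 and 1.17 at 3 h, and 0.09, 0.95 and 0.76 at 5 h. The Tbc1d23 line read -1.57, -2.00 and -3.61 at 0 h, 1.01, 1.40 and -0.32 at 1 h, 1.83, 2.01 and 0.12 at 3 h, and 0.86, 0.78 and -0.84 at 5 h. Replicate 3 of the Tbc1d23 line, the replicate that shares a slide run with the CAT arrays, read lower than replicates 1 and 2 at every time. At 0 h all Tbc1d23 arrays were above all CAT arrays, and after LPS the lines overlapped. The probe was well above background on 22 of 24 arrays and on 1 of 3 in the CAT line at 0 h.

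In the CAT line Zc3h12a rose by 4.82 ± 0.57 at 1 h (28.2-fold, adjusted p = 7.12e-06, limma), 5.42 ± 0.57 at 3 h (42.8-fold, adjusted p = 3.41e-07) and 4.80 ± 0.57 at 5 h (27.9-fold, adjusted p = 1.23e-06). In the Tbc1d23 line the rises were 3.09 ± 0.57 (8.5-fold, adjusted p = 0.00504), 3.71 ± 0.57 (13.1-fold, adjusted p = 0.000283) and 2.66 ± 0.57 (6.31-fold, adjusted p = 0.00711). These folds are fitted values over a 0 h level near background, since only 1 of the 3 CAT arrays at 0 h was well above it. With the normexp correction the CAT rises were 2.22, 2.71 and 2.21 and the Tbc1d23 rises 1.88, 2.42 and 1.53 at 1, 3 and 5 h, all called. The highest mean was at 3 h in both lines, and at 5 h the signal was 65.1% of that level in the CAT line and 48.1% in the Tbc1d23 line. The change from 3 to 5 h in the Tbc1d23 line was -0.97, -1.23 and -0.97 on its 3 slides and was not called (-1.06 ± 0.57, adjusted p = 0.896, limma). It was called with slide as a random block (adjusted p = 0.0412), with run as a block (0.0139) and with the replicate block within a line (0.00296). The CAT change of -0.62 (adjusted p = 0.644) was called with the last of these (0.0131).

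The interactions of Zc3h12a, -1.73 ± 0.81 at 1 h (adjusted p = 0.564, limma), -1.71 ± 0.81 at 3 h (adjusted p = 0.193) and -2.14 ± 0.81 at 5 h (adjusted p = 0.0676), were not called. Each slide holds the 4 times of 1 line and replicate, so a rise can be read within a slide. Within slides the rise at 1 h was 4.84, 5.17 and 4.45 in the CAT line and 2.58, 3.4 and 3.28 in the Tbc1d23 line. It was at 3 h 5.47, 5.84 and 4.95 against 3.4, 4.01 and 3.73, and at 5 h 4.54, 5.32 and 4.55 against 2.43, 2.78 and 2.76. At every time each CAT slide rose more than each Tbc1d23 slide in this scaling. With the normexp correction the interactions were -0.34, -0.29 and -0.68 at 1, 3 and 5 h, none called (adjusted p = 1, 0.867 and 0.498), so their size depends on the background treatment. Without that correction, with slide as a random block (correlation within a slide 0.54), all 3 interactions were called, with adjusted p of 0.00955, 0.00245 and 0.000222 for the same differences. With slide run as a block they were called as well (adjusted p = 0.00168, 0.000391 and 2.47e-05), and within run 2 the 5 h interaction was -2.04 (adjusted p = 0.0187). Without Tbc1d23 0 h replicate 3 it was -2.75 (adjusted p = 0.0146), and without Tbc1d23 3 h replicate 3, which leaves the difference at -2.14, 0.0411.

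**Figure D2:**
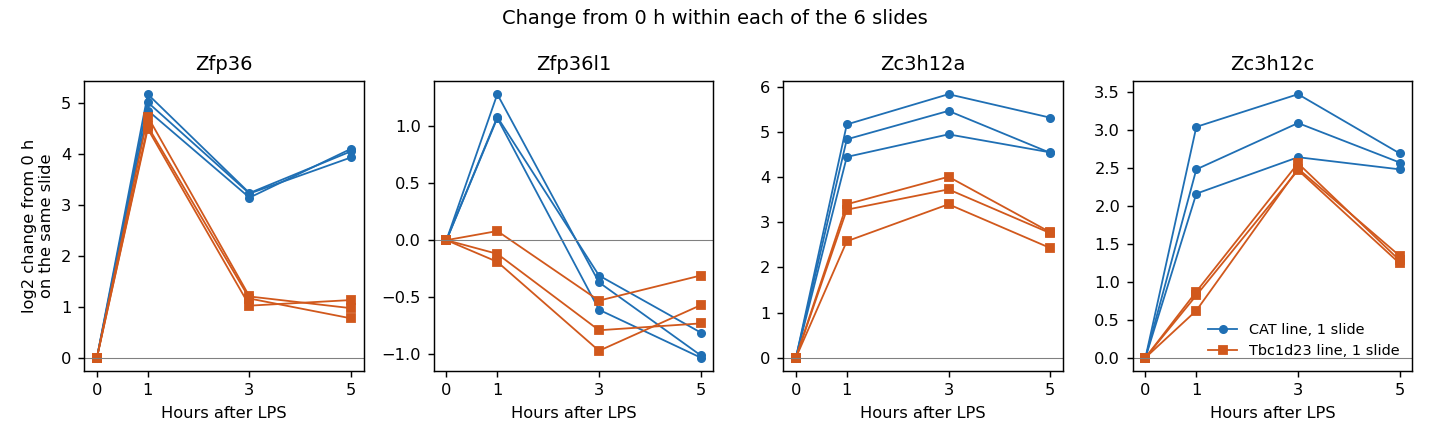
Change in log2 signal from the 0 h array of the same slide (y axis) against hours after LPS (x axis) for Zfp36, Zfp36l1, Zc3h12a and Zc3h12c, with 1 line for each of the 6 slides, 3 per cell line. The Zc3h12a rises at 5 h lie between 4.54 and 5.32 on the CAT slides and between 2.43 and 2.78 on the Tbc1d23 slides; each panel has its own y axis.

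The higher 0 h level of Zc3h12a in the Tbc1d23 line, 1.81 ± 0.57 (adjusted p = 0.0153, limma), is not separate from the smaller fold, because both use the 0 h arrays. After LPS the line differences were 0.08 at 1 h, 0.10 at 3 h and -0.33 at 5 h, none called. With run as a block they were called the other way at 1 and 3 h, -1.05 (adjusted p = 0.00148, limma) and -1.03 (adjusted p = 0.00147). So fitted, the difference was -1.47 at 5 h (adjusted p = 4.96e-05) and 0.68 at 0 h (adjusted p = 0.0264). This fit takes the run effect from Tbc1d23 replicate 3 against replicates 1 and 2, since run 1 holds no CAT array. The shift in these line differences thus comes from 1 slide against 2, with arrays of a slide counted as independent. Within run 2, with 1 Tbc1d23 array per time, the 0 h difference was 0.60 (adjusted p = 0.22), that at 3 h -1.09 (adjusted p = 0.0302) and that at 5 h -1.44 (adjusted p = 0.0075). The 0 h call was lost without Tbc1d23 0 h replicate 1 (1.40, adjusted p = 0.0835), Tbc1d23 0 h replicate 2 (1.61, 0.0574) or CAT 0 h replicate 1 (1.68, 0.0517), with the normexp correction (0.44, 0.405) and with quantile normalization (1.46, 0.0535). Neither the direction of a line difference in the level of Zc3h12a after LPS nor the size of the difference between its rises was therefore settled. By mean, the 6 LPS groups had no called difference between neighbours, the lowest of them, Tbc1d23 5 h, was 2.66 above Tbc1d23 0 h, and CAT 0 h came last.

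Zc3h12c, a second regnase, was induced in both lines, less at 1 and 5 h in the Tbc1d23 line than in the CAT line. The CAT line read 0.48, 0.72 and 0.64 at 0 h, 3.52, 3.20 and 2.79 at 1 h, 3.95, 3.81 and 3.27 at 3 h, and 3.17, 3.29 and 3.12 at 5 h. The Tbc1d23 line read 0.74, 0.86 and 0.91 at 0 h, 1.36, 1.67 and 1.78 at 1 h, 3.24, 3.32 and 3.47 at 3 h, and 2.08, 2.10 and 2.19 at 5 h. All CAT arrays were higher at 1 and 5 h, the lines overlapped at 3 h, and at 0 h all Tbc1d23 arrays were slightly higher without a called difference (0.22, adjusted p = 0.316, limma).

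The rise of Zc3h12c at 1 h was 2.56 ± 0.17 in the CAT line (5.9-fold, adjusted p = 2.37e-09, limma) and 0.77 ± 0.17 in the Tbc1d23 line (1.71-fold, adjusted p = 0.0231). At 3 h the lines came close, with 8.36-fold and 5.69-fold, and at 5 h they parted again, with 5.98-fold and 2.44-fold. The interaction was -1.79 ± 0.24 at 1 h (adjusted p = 0.00012), -0.56 ± 0.24 at 3 h (adjusted p = 0.151) and -1.29 ± 0.24 at 5 h (adjusted p = 0.000555). From 1 to 3 h the Tbc1d23 line gained 1.74 ± 0.17 (adjusted p = 2.14e-06), and from 3 to 5 h it lost 1.22 (-1.22 ± 0.17, adjusted p = 0.000747), leaving 42.9% of its highest signal. The CAT line kept 71.5% of its highest signal at 5 h (-0.48 ± 0.17 from 3 h, adjusted p = 0.0707). That loss was called with slide as a random block (adjusted p = 0.00798) and without CAT 1 h replicate 1, CAT 1 h replicate 3 or CAT 3 h replicate 3, at adjusted p of 0.0449, 0.0398 and 0.00855.

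Both called interactions of Zc3h12c missed the threshold within run 2, -1.69 (adjusted p = 0.0968, limma) at 1 h and -1.30 (adjusted p = 0.0589) at 5 h. With arrays scaled to their median they were -1.36 (adjusted p = 0.42) and -1 (adjusted p = 0.232). The 3 h interaction was called with slide as a random block (-0.56, adjusted p = 0.028) and without CAT 3 h replicate 3 (-0.76, 0.0272). The loss from 3 to 5 h in the Tbc1d23 line was not called with median scaling (-1.51, 0.058) or within run 2 (-1.28, 0.298). The rise at 1 h in the Tbc1d23 line was 1.33 with median scaling (adjusted p = 0.0435). It was not called without any 1 of 3 arrays, Tbc1d23 0 h replicate 1 (0.72, adjusted p = 0.109), Tbc1d23 1 h replicate 2 (0.74, 0.0994) or Tbc1d23 1 h replicate 3 (0.68, 0.117). Across the alternatives that left out no single array, this rise was 0.73 to 1.33 and that at 5 h 1.17 to 1.54. Neither of these rises was called under all of them. Ordered by mean, CAT 3 h, Tbc1d23 3 h, CAT 5 h and CAT 1 h had no called difference between neighbours. CAT 1 h was 1.05 above Tbc1d23 5 h (adjusted p = 5.62e-05), and Tbc1d23 5 h and 1 h did not differ by a called amount (0.52, adjusted p = 0.0923).

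Rc3h1 (roquin-1), which binds stem-loops shared with the regnases, rose modestly, with its highest mean at 3 h in both lines. The CAT line read 1.49, 1.95 and 2.03 at 0 h, 2.59, 2.69 and 2.35 at 1 h, 3.07, 3.14 and 2.64 at 3 h, and 1.67, 2.00 and 2.05 at 5 h. The Tbc1d23 line read 2.37, 2.55 and 2.09 at 0 h, 2.83, 3.08 and 2.53 at 1 h, 3.46, 3.46 and 3.06 at 3 h, and 2.97, 2.90 and 2.46 at 5 h. At 3 h it was 1.13 ± 0.20 above 0 h in the CAT line (2.18-fold, adjusted p = 0.000161, limma) and 0.99 ± 0.20 in the Tbc1d23 line (1.99-fold, adjusted p = 0.00366). The latter was 1.54 with median scaling and 0.54 on the mean of both probes, called in each. Its call was not kept under every alternative. At 5 h the CAT line was back within 0.08 of its start (adjusted p = 0.801), and the Tbc1d23 line stood 0.44 above its own (adjusted p = 0.29; 0.04 with slide as a random block).

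None of the interactions of Rc3h1 from 0 h was called, -0.25 ± 0.28 at 1 h, -0.13 ± 0.28 at 3 h and 0.36 ± 0.28 at 5 h (limma, adjusted p = 1, 0.889 and 0.449). The line differences were 0.52 ± 0.20 at 0 h (adjusted p = 0.043) and 0.87 ± 0.20 at 5 h (adjusted p = 0.0012), with every Tbc1d23 array above every CAT array at both times. With arrays scaled to their median these were -0.03 and 0.62, and within run 2 0.27 and 0.55, none of them called. The 0 h difference was not called without replicate 1 or 2 of either line at 0 h or replicate 1 of either line at 1 h (0.35 to 0.58, adjusted p up to 0.209). The dimmer Rc3h1 probe was higher in the Tbc1d23 line at all 4 times, by 1.14, 0.89, 0.64 and 0.85, all called. It rose by 0.59 at 3 h in the CAT line (adjusted p = 0.0136) and by 0.09 in the Tbc1d23 line (adjusted p = 0.928). The rise of Rc3h1 at 1 h in the CAT line was 0.72 ± 0.20 (adjusted p = 0.0293). It was not called without CAT 0 h replicate 1 (0.56, adjusted p = 0.17), CAT 1 h replicate 1 (0.70, 0.0947) or CAT 1 h replicate 2 (0.65, 0.125).

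Elavl1 (HuR) had no called change on its brightest probe. The CAT line read 4.78, 5.51 and 5.48 at 0 h, 5.41, 5.47 and 5.13 at 1 h, 5.98, 5.96 and 5.40 at 3 h, and 5.63, 5.92 and 5.75 at 5 h. The Tbc1d23 line read 5.52, 5.85 and 5.99 at 0 h, 5.09, 5.58 and 5.74 at 1 h, 5.74, 6.01 and 6.26 at 3 h, and 5.68, 6.23 and 6.31 at 5 h. By limma 0 of 20 contrasts was called, with 5 at an unadjusted p under 0.05 and a lowest adjusted p of 0.0751. With slide as a random block the CAT rises of 0.53 at 3 h (adjusted p = 0.0111) and 0.51 at 5 h (adjusted p = 0.0119) were called. The first was also called without CAT 3 h replicate 3 (0.72, adjusted p = 0.0334).

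The dimmer Elavl1 probes gave other answers. The second probe was higher in the Tbc1d23 line by 1.31 at 0 h (adjusted p = 2.03e-06, limma), 1.00 at 1 h (4.79e-05), 1.01 at 3 h (3.07e-05) and 1.2 at 5 h (3.82e-06). The same probe rose in the CAT line by 0.64 at 3 h (adjusted p = 0.00325, limma) and 0.51 at 5 h (0.0142). The third also rose in the CAT line, by 1.37 at 3 h (adjusted p = 0.00011) and 1.1 at 5 h (0.000761). It had an interaction of -1.2 at 3 h (0.0166) and was higher in the Tbc1d23 line at 0 h by 0.79 (0.00988). They shared the direction of the brightest probe in 20 and 16 of 20 contrasts, but no line difference or LPS change of Elavl1 was called on all 3 probes.

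**Figure D3:**
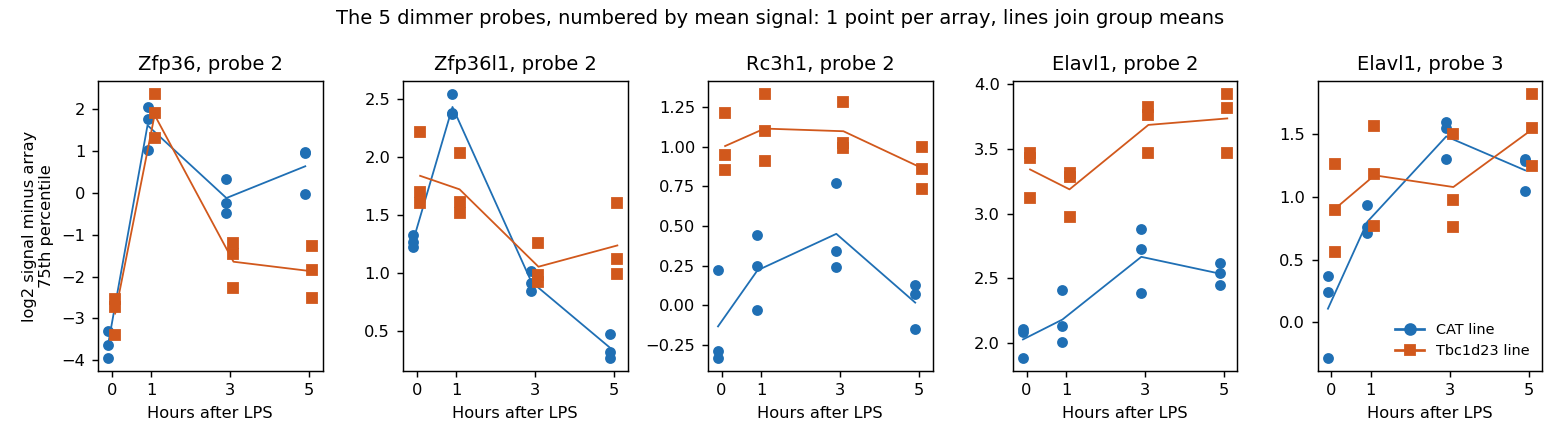
Log2 signal minus the array's 75th percentile (y axis) of the 5 dimmer probes against hours after LPS (x axis), with 1 point per array and lines joining group means. The second Zfp36 and Zfp36l1 probes repeat the courses over time of the brighter ones. The second Zfp36 probe is higher by mean in the Tbc1d23 line at 0 and 1 h, where the brighter one is lower. The second Rc3h1 and Elavl1 probes are higher in the Tbc1d23 line at every time. Each panel has its own y axis.

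Among the 7 genes, 5 were called higher and 0 lower at 1 h in the CAT line, where 3.94% of all probes were higher and 3.85% lower. For the Tbc1d23 line, 3 were higher and 0 lower (0.847 and 0.879% of all probes). At 3 h 4 were higher and 1 lower in the CAT line (17.3 and 18.6%), and 4 higher and 2 lower in the Tbc1d23 line (3.34 and 3.35%). At 5 h 3 were higher and 2 lower in the CAT line (19.2 and 23.1%), and 3 higher and 0 lower in the Tbc1d23 line (2.8 and 2.93%). The share of all probes called at each time was larger in the CAT line, so the same count of members stands nearer the background there. The median log2 change of the 7 at 1 h was 1.14 in the CAT line and 0.48 in the Tbc1d23 line, beside -0.09 and -0.08 over all probes.

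Between the lines, at 0 h 3 of the 7 were called higher in the Tbc1d23 line and 0 lower (24.7 and 20.4% of all probes), while at 1 h none was higher and 3 were lower (24.2 and 21.1%). At 3 h each direction had 1 call (26.1 and 24.4%), and at 5 h 3 genes were higher and 2 lower (29.2 and 23.7%), so these counts stand near the background. The interaction was called for 2 of the 7 at 1 h, both lower (0.519% of all probes higher and 1.78% lower), and for Zfp36 alone at 3 h, lower (7.4 and 8.46%). At 5 h it was higher for 1 and lower for 2 (11.9 and 10.7%), and from 1 to 5 h higher for 1 and lower for 1 (10.9 and 9.01%).

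Between LPS times in the CAT line, 1 of the 7 was higher and 3 lower from 1 to 3 h (16 and 13.6% of all probes), 1 higher and 1 lower from 3 to 5 h (6.36 and 8.48%), and 0 higher and 3 lower from 1 to 5 h (18.9 and 18.8%). For the Tbc1d23 line, 1 was higher and 2 lower from 1 to 3 h (2.94 and 2.1%). From 3 to 5 h 0 were higher and 1 lower there (0.223 and 0.583%), and from 1 to 5 h 0 higher and 1 lower (3.2 and 3.01%). The gene that fell from 3 to 5 h in the Tbc1d23 line was Zc3h12c, and the one that fell from 1 to 5 h was Zfp36.

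**Figure D4:**
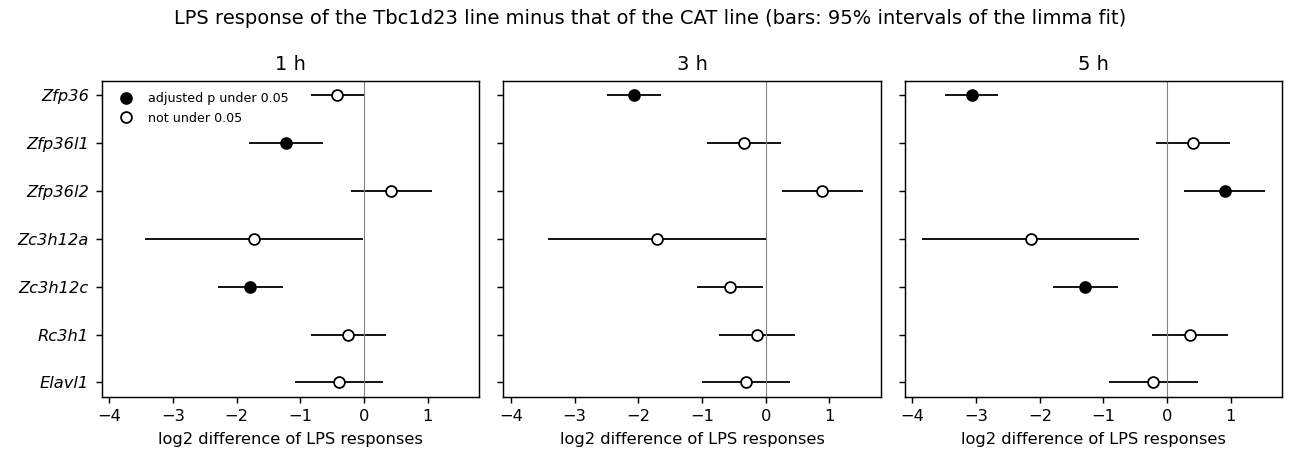
LPS response of the Tbc1d23 line minus that of the CAT line, as a log2 difference (x axis) for each of the 7 genes (y axis) at 1, 3 and 5 h, with bars for the 95% intervals of the limma fit and filled points where the adjusted p was under 0.05. Zfp36 moves from -0.42 at 1 h to -3.07 at 5 h, and Zc3h12c is filled at 1 and 5 h and open at 3 h. The bars of Zc3h12a are wide.

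The genes whose 8 group means followed those of Zfp36 most closely, among 9378 genes, were Ier2 (r = 0.965), an immediate early gene, Tnfaip3 (0.96), which encodes the NF-kB inhibitor A20, and Ccnl1 (0.954), a cyclin. Closest to Zc3h12a were Traf1 (r = 0.983), an adaptor of TNF receptors, Gpr84 (0.959), a receptor for fatty acids, and Icam1 (0.954), an adhesion molecule. These correlations are over 8 group means, share the same arrays and describe likeness only. Ier2 read 2.41, 5.87, 3.84 and 4.44 at 0, 1, 3 and 5 h in the CAT line and 2.31, 5.64, 3.19 and 2.87 in the Tbc1d23 line. Ier2 too was higher at 5 than at 3 h by mean in the CAT line and not in the Tbc1d23 line. In the CAT line Tnfaip3 was instead lower at 5 h (4.7) than at 3 h (5.97), and Ccnl1 read 0.59 at 3 h and 0.62 at 5 h.

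The rest of the decay machinery is counted at 1 h, when 3.94% of all probes were higher and 3.85% lower in the CAT line and 0.847 and 0.879% in the Tbc1d23 line, so counts of 1 or 2 genes in a list stand near the background. Of 19 other element-binding proteins tested, 1 rose in the CAT line, Arid5a, known to stabilise Il6 mRNA (2.63 ± 0.39, adjusted p = 0.000119, limma). The same gene rose in the Tbc1d23 line (1.84 ± 0.39, adjusted p = 0.0161). At 0 h it was well above background on 2 of 3 Tbc1d23 arrays, with an SD of 1.16. Of 19 deadenylation genes 1 rose in each line, Btg2, an adaptor of the deadenylase complex, by 4.59 ± 0.22 (24.1-fold) and 3.20 ± 0.22 (9.21-fold), with an interaction of -1.39 ± 0.31 (adjusted p = 0.0185). Of 20 decapping genes 2 were called in the CAT line, Pnrc1 higher (0.59) and Pnrc2 lower (-0.88), and 0 in the Tbc1d23 line, with 2 at an unadjusted p under 0.05. Of 16 exosome genes 0 were called in either line by limma, with 0 at an unadjusted p under 0.05 in the CAT line and 1 in the Tbc1d23 line. Of 7 other members of the same families 3 were tested, and 0 were called at 1 h in either line, with 0 at an unadjusted p under 0.05.

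Kinases, phosphatases and proteases that act on these proteins were tested for 15 genes, of which 3 rose at 1 h in the CAT line and 1 in the Tbc1d23 line. Dusp1, the phosphatase that switches off p38 and so bears on ZFP36 phosphorylation, rose by 6.29 ± 0.20 in the CAT line (78.3-fold, adjusted p = 1.98e-14, limma) and 3.07 ± 0.20 in the Tbc1d23 line (8.38-fold, adjusted p = 4.17e-09). The interaction was -3.23 ± 0.28 (adjusted p = 4.16e-07). Malt1, the protease known to cleave regnase-1, was 3.51 ± 0.16 above its start at 5 h in the CAT line (adjusted p = 1.11e-12) and 0.24 ± 0.16 in the Tbc1d23 line (adjusted p = 0.553). Mapkapk2, the kinase known to phosphorylate ZFP36, was 1.83 ± 0.11 above its start at 5 h in the CAT line (adjusted p = 1.32e-10) and 0.30 ± 0.11 in the Tbc1d23 line (adjusted p = 0.159). Only RNA was measured, so the activity of these enzymes and the phosphorylation or cleavage of the members are not known here.

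The lists of known target transcripts are read beside the same shares of all probes at 1 h. Of 10 ZFP36 target transcripts tested, 9 rose at 1 h in the CAT line (median log2 change 3.82, or 3.02 with 4 genes at their lower bound) and 6 in the Tbc1d23 line (median 1.93, also with 2 genes at their bound), beside medians of -0.09 and -0.08 over all probes. Tnf, the classic ZFP36 target, rose 135-fold at 1 h in the CAT line (7.07 ± 0.14) and stayed 7.38 and 6.48 above 0 h at 3 and 5 h. In the Tbc1d23 line it rose by 5.26 ± 0.14 and stood 2.44 and 2.10 above 0 h later. Il10, which encodes an anti-inflammatory cytokine, was 3.34 ± 0.38 above 0 h at 5 h in the CAT line (adjusted p = 5.46e-07, limma) and 0.58 ± 0.38 in the Tbc1d23 line (adjusted p = 0.571). These values start near background, since at 0 h Il10 was well above it on 1 of 3 CAT arrays and 2 of 3 Tbc1d23 arrays. Il6, not well above background in the CAT line at 0 h, was at least 973-fold higher there at 5 h and at least 1.27-fold higher in the Tbc1d23 line. At least means the bright group's mean over the higher, per array, of the probe's own signal and the lowest signal well above background. The interaction at 5 h was called lower for 10 of 10 ZFP36 targets (median -4.78), a fitted value that includes the 0 h levels. Of all probes, 10.7% were called lower and 11.9% higher in that interaction. At 0 h 8 of the 10 were called higher and 1 lower in the Tbc1d23 line (median 1.89, or 1.27 with 4 genes at their bound). At 5 h 8 were called lower and 1 higher (median -2.37, or -2.13 with 1 gene at its bound). Over all probes, 24.7% were called higher and 20.4% lower in the Tbc1d23 line at 0 h, and 29.2% higher and 23.7% lower at 5 h.

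Of 9 regnase or roquin target transcripts tested, 5 rose at 1 h in the CAT line (median log2 change 3.56, or 1.77 with 2 genes at their bound) and 4 in the Tbc1d23 line (median 0.13). At 5 h the interaction was called lower for 6 and higher for 1, Icos (1.39, adjusted p = 0.0244, limma), beside 10.7% lower and 11.9% higher over all probes. Nfkbiz, which encodes an NF-kB cofactor and is cut by regnase-1, rose by 7.54 ± 0.20 at 1 h in the CAT line and 5.34 ± 0.20 in the Tbc1d23 line, and stood 5.39 and 2.12 above 0 h at 5 h. Both lists share Tnf, Il6 and Ptgs2. In the Tbc1d23 line the transcripts of Zfp36, Tnf and Nfkbiz were thus all lower at 5 h than in the CAT line relative to their own 0 h levels, and whether one bears on another was not tested.

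**Figure D5:**
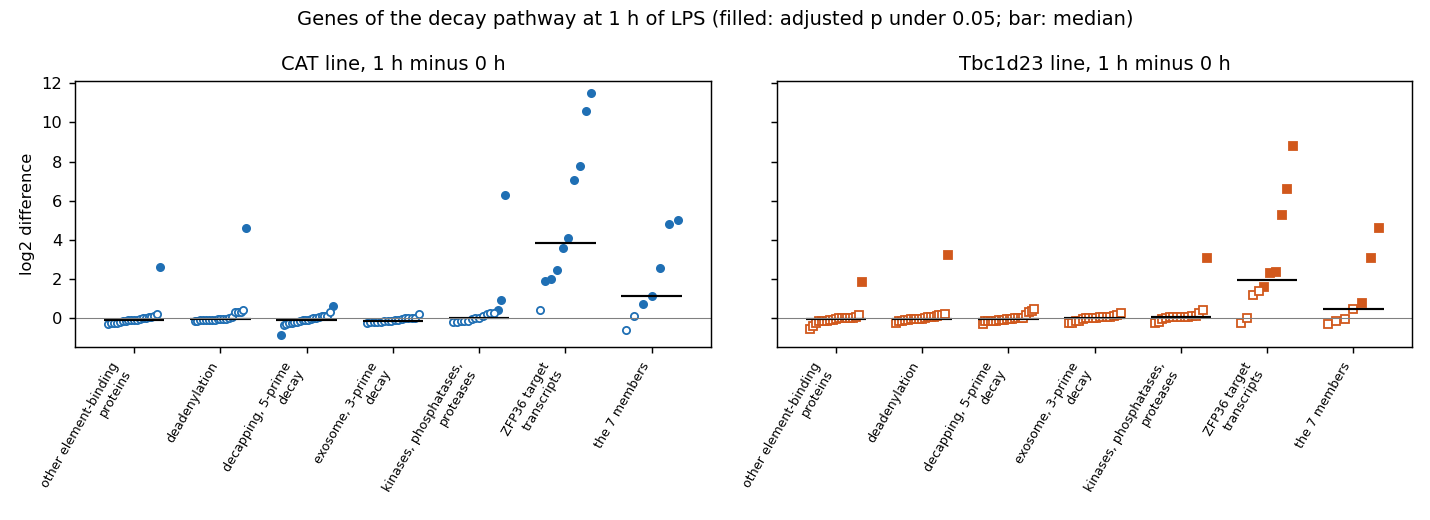
Log2 difference between 1 and 0 h of LPS (y axis) for the genes of 6 decay-pathway lists and the 7 members (x axis) in the CAT line (left) and the Tbc1d23 line (right), with 1 point per gene on its brightest probe, filled where the adjusted p was under 0.05, and bars at the medians. Of the element-binding, deadenylation, decapping and exosome genes, Arid5a and Btg2 lie highest in both lines, and the highest members and ZFP36 targets lie far above 0.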

How the data were processed

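RNA of 24 samples was measured on one-colour Agilent arrays. The deposited scanner files hold spot intensity, as a background-subtracted processed signal in which low values are replaced by a surrogate. Per the file headers the software was Feature Extraction 10.7.1.1 and probe coordinates are those of mm9. The authors also deposited a table of values per probe, which the values show to be on a log2 scale. It ranks probes almost as the processed signal does (Spearman 0.9997 to 0.9999 per array) and served as an alternative. RMA and Partek also appear in the submitters' processing notes, with no role given.

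Outlier spots were left out, spots of a probe averaged (43379 spots, 41174 probes), and the array's 75th percentile subtracted from the log2 signal. Probes that cleared the background in every replicate of at least 1 group (21960) were fitted with limma 3.58.1 (R 4.3.3, data.table version 1.17.8, statmod 1.5.0) as 8 group means, with Benjamini-Hochberg adjustment over all probes within each of 20 contrasts. The number of arrays limits the precision. The scripts were tested on simulated data of 21960 probes. Of 100 probes changed by 1 on the log2 scale, 62% were called in the CAT response at 1 h and 36% in the 1 h interaction. For 100 probes changed by 2 these shares were 86 and 71%. A difference that was not called can therefore be one that was missed.

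The 6 slides hold 4 arrays each, the 4 times of 1 line and replicate. Their serial numbers form 2 stretches of consecutive numbers, here called runs. No source used here says that the slides were made or processed in such batches. Run 1 holds Tbc1d23 replicates 1 and 2, and run 2 the other arrays. With run as a block, the run effect is therefore estimated within the Tbc1d23 line alone. Alternatives were quantile and median scaling, a normexp background, the deposited values, the probe filter, the summary of probes, slide, run and replicate blocks, and leaving out each array. Pathway lists name, besides fixed genes, those with the highest and lowest called difference at 1 h in the CAT line and in the 5 h interaction. The genes, lists and rules were chosen with earlier results of these data known. Sequences are from the files' probe column and RefSeq's GRCm38.p6 upstream table.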

Additional observations from a re-analysis of the deposited data

Results flagged for a closer look

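The LPS response differed between the lines by a called interaction (limma, adjusted p under 0.05, n = 3 arrays per group) for 4 of the 7 genes, counted over 4 contrasts. The background at 1 h was 0.519% of all probes with a positive interaction called and 1.78% with a negative one. For 3 h these shares were 7.4 and 8.46%, for 5 h 11.9 and 10.7%, and for the change from 1 to 5 h 10.9 and 9.01%. For Zfp36 the difference was -2.07 at 3 h, -3.07 at 5 h and -2.65 for the change from 1 to 5 h, and the slides of the lines did not overlap in any of these. For Zc3h12c it was -1.79 at 1 h and -1.29 at 5 h. For Zfp36l1 it was -1.22 at 1 h and 1.63 for the change from 1 to 5 h. For Zfp36l2, a dim probe, it was 0.91 at 5 h.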

How the results depend on the processing

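The courses of Zfp36, Zc3h12a and Zc3h12c kept the direction of every called LPS change from 0 h under every alternative run, with Zfp36 at 1 h between 4.50 and 5.19 in the CAT line and between 4.16 and 5.15 in the Tbc1d23 line. Of the 140 member contrasts, 128 kept their call, and their direction where called, with quantile normalization. The number that did was 113 with median scaling, 125 with the normexp correction, 129 with the deposited values and 133 with no filter. It was 127 on the mean of a gene's probes and 110 with slide as a random block. It was 118 with run as a block, 117 within run 2 and 135 with the replicate block; all 140 did with 1 probe per gene. The normexp correction, in which arrays where its fit diverged (6 of 24) took the background of the other arrays, was chosen after seeing the data, since the plain fit could not be used. Median scaling moved the median of all probes to 0.43, 0.54 and 0.29 in the interactions at 1, 3 and 5 h and to -0.46 in the 0 h line difference; array medians lie near background. With slide as a random block all 30 changes were calls gained. Run as a block gained 19 calls and lost 1, and 2 differences changed sign. Median scaling lost 23 calls and gained 2, and 2 differences changed sign. The replicate block within a line kept 82 of 112 contrasts, and the other 30 were calls gained. The cause of these changes and of those below was not tested.

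Among differences called as reported or under the alternative, those that changed sign were the line differences of Zfp36l1 (-0.02) and Rc3h1 (-0.03) at 0 h with median scaling, Zfp36l2 at 3 h with normexp (-0.06), and Zc3h12a with run as a block at 1 h (-1.05) and 3 h (-1.03) and within run 2 at 3 h (-1.09).

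The number of members called out of 7 moved by over 1.5 times in these cases. Quantile normalization gave 2 from 1 to 5 h in the Tbc1d23 line and 3 for the 3 h interaction, and the deposited values gave 2 and 3. Median scaling gave 0 from 3 to 5 h in each line, 1, 1, 1 and 2 for the line differences at 0, 1, 3 and 5 h, and 0, 1 and 1 for the interactions at 1 h, 5 h and from 1 to 5 h. Normexp gave 4 from 3 to 5 h in the CAT line, 3 from 1 to 5 h in the Tbc1d23 line and 1 for the 3 h line difference. With no filter 1 was called for the 0 h line difference. A filter on all arrays, which drops Zfp36l2 and Zc3h12a, gave 3 and 3 in the CAT line at 3 and 5 h and 1 for the 3 h line difference. The mean of a gene's probes gave 2 from 3 to 5 h in the Tbc1d23 line and 2 for the 3 h interaction. Slide as a random block gave 5 and 5 in the CAT line from 3 to 5 h and 1 to 5 h, 5 in the Tbc1d23 line at 5 h and 6, 4 and 4 from 1 to 3, 3 to 5 and 1 to 5 h, and 4, 5 and 4 for the interactions at 3 h, 5 h and from 1 to 5 h. Run as a block gave 5 from 3 to 5 h in the CAT line, 2 and 2 from 3 to 5 and 1 to 5 h in the Tbc1d23 line, 4 for the 3 h line difference, and 3 and 5 for the interactions at 3 and 5 h. Within run 2, 1 was called in the Tbc1d23 line at 5 h and 0 from 3 to 5 h, 1, 1 and 4 for the line differences at 0, 1 and 3 h, and 1 for the 1 h interaction. The replicate block within a line (the slide) gave 7, 6 and 5 in the CAT line from 1 to 3, 3 to 5 and 1 to 5 h, 5 in the Tbc1d23 line at 5 h and 7, 2 and 4 between its LPS times, and 4 and 5 for the interactions at 3 and 5 h.

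Leaving out 1 array gave 1 to 2 members called from 1 to 5 h in the Tbc1d23 line (2 without CAT 3 h replicate 3). It gave 0 to 3 for the 0 h line difference (0 without CAT 0 h replicate 1, and 1 without CAT 0 h replicate 2 or Tbc1d23 0 h replicate 1 or 2) and 1 to 2 for that at 3 h (1 without Tbc1d23 3 h replicate 1 or 3). It gave 1 to 2 for the 1 h interaction (1 without Tbc1d23 1 h replicate 1 or 2, Tbc1d23 0 h replicate 3 or CAT 1 h replicate 3) and 1 to 2 for the 3 h interaction (2 without Tbc1d23 3 h replicate 2, Tbc1d23 0 h replicate 3 or CAT 3 h replicate 2 or 3).

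Replicate numbers do not pair the lines: deviations of arrays with the same number and time correlated between lines at -0.38 to -0.04 (12 pairs), and on the same slide at 0.06 to 0.81 (36 pairs). The replicate block across lines changed 5 of 140 calls, among them the 5 h interaction of Zc3h12a (-2.14, adjusted p = 0.0307, limma). Zfp36l2 and the 0 h level of Zc3h12a in the CAT line lie near background, which limits their folds.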
